A study of Mus musculus with 3072 samples.

Results

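Chemokine and cytokine-producing cells were selected on their own reads among sorted microglia: a cell belongs to them if it has reads of at least 2 of 6 genes, Ccl3, Ccl4, Ccl2, Il1b, Tnf and Cxcl2. The rule found 71 of 1878 cells. Of these, 62 lay among the 1713 cells whose labels give a read total, and these 62 are called producer cells here. Another 1376 cells, called zero cells, had reads of none of the genes, and the remaining cells had reads of 1. The other 9 producers belong to APP/PS1-ApoeKO cortex cells of 1 lane whose labels give no read total. Since measured values of the 6 genes chose the cells, those values are given as a description, without a test.

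The cells came from male mice and were sorted as CD11b-positive, DAPI-negative single cells after tissue dissociation. The genotypes were C57BL/6 mice; C57BL/6-ApoeKO mice, which lack Apoe; APP/PS1 mice, which carry the APPswe and PS1dE9 transgenes and deposit amyloid; and APP/PS1-ApoeKO mice, which carry the transgenes and lack Apoe. The 6 groups analysed here are C57BL/6 cortex at 18 months, C57BL/6-ApoeKO cortex at 18 months, APP/PS1 cortex and hippocampus at 17 months, and APP/PS1-ApoeKO cortex and hippocampus at 18 months; APP/PS1 mice at 18 months were not analysed here. No label ties a cell to an animal; each group is therefore treated as 1 sample, and how many mice it pools is unknown here. APP/PS1 mice with Apoe were also the younger ones, so these cannot be told apart. Reads per cell ranged from 68354 to 1320640, and the group medians from 442917 to 765703.5, and 0 cells held the same counts as another.

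Microglia are the resident macrophages of the brain. When pattern recognition or damage signals reach them, NF-kB and AP-1 transcription factors drive short-lived messages of chemokines, which draw other cells by binding chemokine receptors, and of the cytokines IL-1beta and TNF. The same messages, together with immediate early genes such as Fos and Jun, are also known to be induced by enzymatic dissociation of the tissue. Ccl3 and Ccl4 encode MIP-1alpha and MIP-1beta, which attract monocytes and lymphocytes; Ccl2 encodes a monocyte attractant that binds Ccr2; Cxcl2 encodes a neutrophil attractant that binds Cxcr2.

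On GRCm38, Ccl3 lies at chr11:83647844-83649355 on the minus strand and Ccl4 at chr11:83662584-83664683 on the plus strand, 13228 bases apart. Ccl2 lies at chr11:82035571-82037453 (plus), Il1b at chr2:129364570-129371139 (minus), Tnf at chr17:35199381-35202007 (minus) and Cxcl2 at chr5:90903871-90905938 (plus). The transcripts of Ccl3 and Ccl4 share no stretch of 31 bases (0 shared), so a read of that length from 1 gene does not match the other. Exons of Il1b overlap those of the antisense gene Il1bos, and reads of the 2 genes cannot be told apart unless strand was used. The promoter sequences from RefSeq (GRCm38.p6) hold 4 of the 6 genes. For 3 of the genes, a chemokine and both cytokines, the 250 bases before the RefSeq start are shown. The TATA box (TATAAA, either strand) is in capitals. The gene coordinates above are from the GENCODE annotation. For Ccl3 the start there (83649355) does not adjoin the window shown, which reaches down to 83649379.
Ccl3, chr11:83649379-83649628, minus strand: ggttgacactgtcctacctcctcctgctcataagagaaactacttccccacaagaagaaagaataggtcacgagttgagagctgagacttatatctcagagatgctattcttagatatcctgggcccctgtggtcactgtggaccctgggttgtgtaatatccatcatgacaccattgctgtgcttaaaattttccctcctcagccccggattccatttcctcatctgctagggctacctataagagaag
Il1b, chr2:129371140-129371389, minus strand: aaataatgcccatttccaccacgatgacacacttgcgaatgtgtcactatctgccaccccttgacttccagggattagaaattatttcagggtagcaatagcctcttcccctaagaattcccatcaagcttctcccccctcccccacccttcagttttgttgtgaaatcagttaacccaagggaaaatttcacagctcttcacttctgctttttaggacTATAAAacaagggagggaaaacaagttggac
Tnf, chr17:35202008-35202257, minus strand: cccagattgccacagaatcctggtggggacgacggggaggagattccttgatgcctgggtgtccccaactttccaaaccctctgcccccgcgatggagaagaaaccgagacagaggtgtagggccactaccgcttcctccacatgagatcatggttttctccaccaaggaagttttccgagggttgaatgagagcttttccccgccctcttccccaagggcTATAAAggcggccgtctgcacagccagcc

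The TATA box starts 31 bases before the start of Il1b and 29 before that of Tnf, and 12.4% of all 32851 promoters of this length hold it. The NF-kB consensus (3.9% of all promoters), AP-1 (TGANTCA, 6.75%) and a C/EBP motif (TTGCNNAA, 9.56%), searched on both strands, are not in these 3 windows. That says only that these letters are not in them.

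Ccl3 was the gene most often read. It had reads in 14.94% of 1713 cells (exact binomial 95% interval 13.3 to 16.7), against 74 cells (4.32%) for Ccl4, 32 (1.87%) for Tnf, 29 (1.69%) for Il1b and 15 (0.876%) for Ccl2. Cxcl2 had reads in 0 of 1713 cells. For scale, 3 counts of that total are 0.175%, a floor that is not an exact interval bound. Cxcr2, the receptor of Cxcl2, had reads in 0 of 62 producer cells. A cell with reads usually held many: the median over the cells concerned was 100 reads for Ccl3, 95 for Ccl4 and 103.5 for Tnf, and 14 Ccl3 cells had fewer than 10 reads. The intervals cover counting error only, since reads that carry no molecular identifier can be copies of 1 molecule.

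Producers were mainly cells with Ccl3 and Ccl4. Of the 62, 43 held this pair and no other rule gene, 7 held Ccl3 and Tnf, and 4 held Ccl3 and Il1b. Ccl3 was read in 60 of 62 producers (96.8%) and Ccl4 in 49 (79.03%), but Tnf in 11 (17.7%), Il1b in 8 (12.9%) and Ccl2 in 3 (4.84%). Only 5 producers had 3 or more of the 6 genes.

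The genes differed in how far their reads came from producers. Producers held 92.03% of all Ccl4 reads and 51.8% of the Ccl3 reads, and 31.9% of the Tnf reads. Much of this came from the 3 cells with the highest levels, described below: without them the shares were 83.3% for Ccl4, 27.1% for Ccl3 and 18.4% for Tnf. Among the cells with reads of 1 gene, 71.3% had Ccl3, 25 had Ccl4, 21 had Il1b, 21 had Tnf and 12 had Ccl2. Cells with Ccl3 had Ccl4 reads in 48 cases (18.8%, 14.2 to 24.1), and cells without Ccl3 in 26 of 1457 (1.78%, 1.17 to 2.60). For Il1b the same 2 shares were 2.73% (1.11 to 5.55) and 1.51% (0.949 to 2.28), and for Tnf 3.52% (1.62 to 6.57) and 1.58% (1.00 to 2.36).

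**Figure D1:**
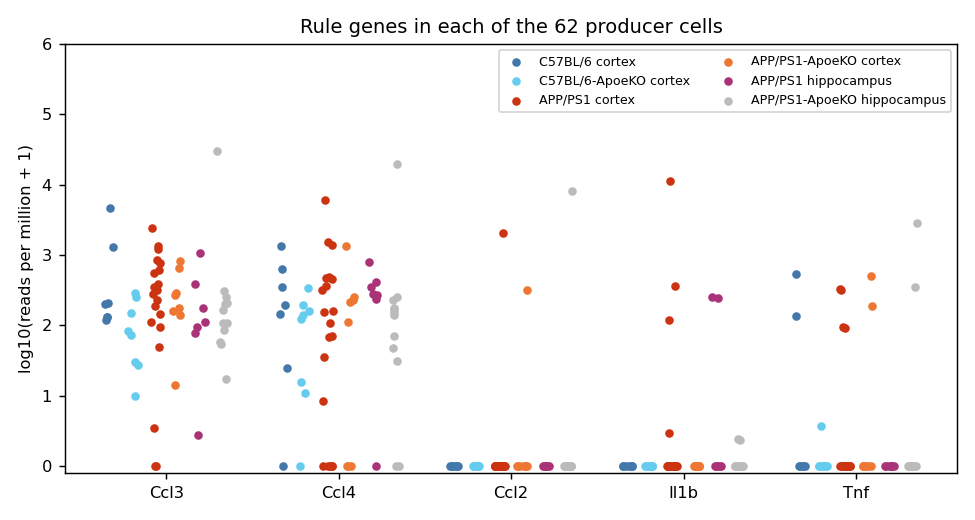
The 5 rule genes with reads in each of the 62 producer cells, as log10 of RPM plus 1 (vertical axis) by gene (horizontal axis) and group (colour); each point is a cell. Ccl3 and Ccl4 were read in 60 and 49 of the cells, the other 3 genes in 3 to 11, and a few cells stand above 3 on the axis, which is 1000 RPM.

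In the 48 producers with both genes, Ccl3 ranged from 2.42 to 30457 RPM (reads of the gene per 1000000 reads of the cell; median 175.5) and Ccl4 from 7.27 to 19845 RPM (median 217.2). Ccl4 had more reads than Ccl3 in 30 of the 48 cells. These levels are not per length, so the 2 genes' levels are not compared. The Spearman correlation of the 2 levels over the 48 cells was 0.437; all cells share the rule and differ in depth and library.

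The rule's threshold separated cells of partly overlapping levels. The summed level of the 6 genes was 9.69 to 2180 RPM (median 383.3) in the 57 cells with exactly 2 genes, and 1.00 to 2267 RPM (median 157.2) in those with exactly 1. The 5 cells with 3 or more genes lay between 336.4 and 61210 RPM.

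A group of 3 cells stood apart from the other producers. An APP/PS1-ApoeKO hippocampus cell had 61210 RPM in the rule genes, with 12212 reads of Ccl3, 7957 of Ccl4, 3235 of Ccl2 and 1139 of Tnf. An APP/PS1 cortex cell had 21866 RPM, led by 3454 reads of Il1b and 1843 of Ccl4. A C57BL/6 cortex cell had 6085 RPM, led by 3614 reads of Ccl3; the next cell had 2180 RPM. The same 3 cells held 11812, 6487 and 15130 RPM of summed immediate early genes and 386, 6 and 2 reads of P2ry12, the purinergic receptor that marks homeostatic microglia. Medians of gene lists and counts of genes in 6 of 6 groups are given below with and without these 3 cells where they differ.

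The share of producers was 2.15% in C57BL/6 cortex (7 cells, 95% interval 0.868 to 4.37), 2.56% in C57BL/6-ApoeKO cortex (8 cells, 1.11 to 4.97), 6.43% in APP/PS1 cortex (20 cells, 3.97 to 9.76), 4.73% in APP/PS1-ApoeKO cortex (8 cells, 2.07 to 9.11), 2.56% in APP/PS1 hippocampus (7 cells, 1.04 to 5.21) and 3.74% in APP/PS1-ApoeKO hippocampus (12 cells, 1.95 to 6.44). APP/PS1 cortex had the highest share, and its interval overlapped that of every other group. With 1 sample a group, no test was made. With each cell thinned to 100000 reads the shares were 2.15%, 2.27%, 6.11%, 4.14%, 2.21% and 3.45% in the same order, with 8 of 1713 cells left out as shallower.

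Within lanes, the share in APP/PS1 cortex was 5.88% and 6.96%, and in APP/PS1 hippocampus, which shared both lanes, 3.10% and 2.08%. C57BL/6 cortex had 2.47% and 1.83% in its lanes, and C57BL/6-ApoeKO cortex, in the same lanes, 2.55% and 2.56%. APP/PS1-ApoeKO hippocampus had 2.42% and 5.13%, the widest spread between lanes. By plate, as named in the sample titles, the share in APP/PS1 cortex ranged from 2.60% to 9.21%, and in C57BL/6 cortex from 1.24% to 3.61%. Among the cells analysed here, the lanes of the APP/PS1-ApoeKO groups hold no cells of other groups. The APP/PS1 groups analysed share lanes with each other alone, and so do both cortex groups without the transgenes. Lane and APP/PS1 genotype therefore cannot be told apart in any group.

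**Figure D2:**
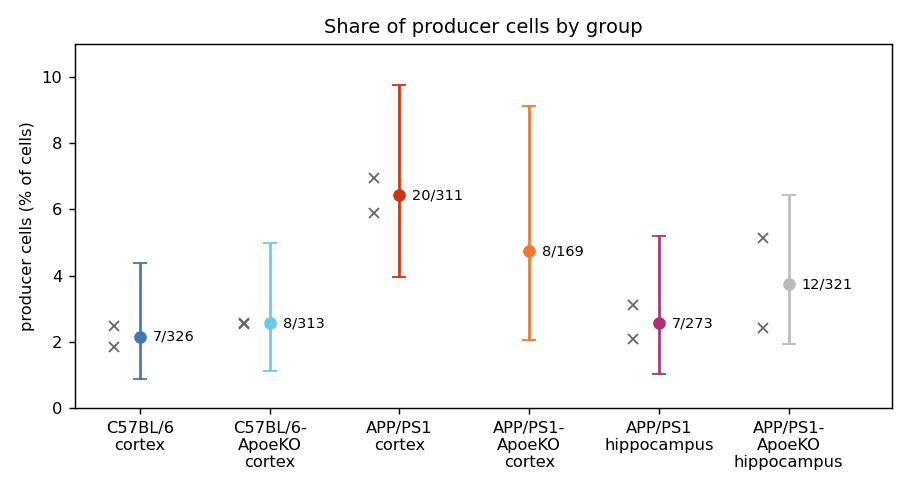
Share of producer cells (vertical axis, % of cells) by group (horizontal axis); points with bars give the share and its exact 95% binomial interval, crosses the share in each lane where a group has 2, and labels the number of producers and cells. APP/PS1 cortex has the highest share, 6.43%, with an interval that overlaps those of the other groups.

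Ccl3 alone, without regard to the other genes, was read in 5.52% of C57BL/6 cortex cells (18 cells, 3.31 to 8.59), 12.1% of C57BL/6-ApoeKO cortex (38 cells, 8.74 to 16.3), 20.9% of APP/PS1 cortex (65 cells, 16.5 to 25.9), 17.8% of APP/PS1-ApoeKO cortex (30 cells, 12.3 to 24.4), 15.02% of APP/PS1 hippocampus (41 cells, interval up to 19.8) and 19.9% of APP/PS1-ApoeKO hippocampus (64 cells, 15.7 to 24.7). C57BL/6 cortex had the lowest share. The intervals cover counting error within 1 sample a group, so they do not compare the conditions. Ccl4 was read in 2.93% to 5.79% of cells over the 6 groups, and Tnf was read most often in C57BL/6 cortex (3.37%, 1.70 to 5.96).

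The producer cells had microglial marker reads. P2ry12, Cx3cr1 (the fractalkine receptor), Csf1r and Siglech were read in 62 of 62. The summed level of the 20 homeostatic genes had a median of 51802 RPM in producers and 69897 RPM in zero cells, and 64462 RPM in cells with 1 gene; median genes read per cell were 2411.5, 2156 and 2237, and after thinning to 100000 reads 2135, 1908 and 1962. Several markers of other types were at 0 in producers, among them Mrc1 and Cd163 of border macrophages, Ccr2 of monocytes, S100a8 and S100a9 of neutrophils, and Cd3e of T cells. These were rare in zero cells too. By group, at most 1.93% of zero cells had Mrc1, 0% Cd163, 5.93% Ccr2, 1.06% S100a8, 2.12% S100a9 and 0.431% Cd3e. Cd44 of the monocyte list was read in 3 of 12 APP/PS1-ApoeKO hippocampus producers and 0.823% of that group's zero cells. Producers of the other groups had 0 Cd44 reads. Between 4 and 11 of each list's genes were at 0, except for the astrocyte list (0) and the 2 mast cell genes in the table, both at 0. Summed over a group's producers, the border macrophage list ranged from 69.7 to 608.3 RPM (zero cells up to 690.9), the monocyte list from 0 to 83.1 RPM (zero cells 6.00 to 31.3) and the neutrophil list from 517.5 to 957.0 RPM (zero cells 438.2 to 651.9); Csf3r of the last list was read in 90.3% of producers and 89.8% of zero cells. In the B cell list, Cd79a and Ms4a1 were at 0 in producers, but Ighm, the heavy chain of IgM, was read in 85.5% of producers and 63.95% of zero cells. Its mean log2 level per cell lay higher in producers in 6 of 6 groups, with a weighted difference of 2.05 (standard error 0.44), and its edgeR log2 fold change was 0.14 (standard error 0.22). The summed B cell list ranged from 420.3 to 974.8 RPM in producers and from 411.3 to 654.6 RPM in zero cells; its part in the results was not tested. At least 3 markers of 1 such list were read in 3 of 62 producers, 1 each for the monocyte, astrocyte and oligodendrocyte lists. For these lists that held for 1, 4 and 6 of 1376 zero cells. For the border macrophage, neutrophil, B cell and neuron lists it held for 0 producers and for 5, 5, 2 and 2 zero cells.

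The dissociation check compared immediate early genes, which turn on within minutes of stimulation without new protein. Producers had more genes with reads in general: of all 6413 genes read in at least 10% of cells, 67.88% were read in a higher share of producers than of zero cells, with a median difference of 2.92 percentage points. Of the 11 immediate early genes read that often, 8 (72.7%) were, a share near that of all genes, with a median difference of 6.23 points. Fos was read in 2 of 62 producers and 2 of 1376 zero cells, and Fosb in 0 of 1713 cells. Jun was read in 35.5% of producers and 16.1% of zero cells, Junb in 38.7% and 29.4%, Klf6 in 48.4% and 33.9%, and Myc in 38.7% and 15.7%. Atf3, a stress-induced factor, was read in 16.1% and 4.43%, and Egr1 in 4 and 12 cells. The 4 producers with Egr1 reads included the 3 highest cells described above. Btg2 did not show this order, with 32.3% and 34.6%.

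By group, Jun was read in 4 of 7 producers and 17.7% of zero cells of C57BL/6 cortex, 1 of 8 and 15.1% in C57BL/6-ApoeKO cortex, 7 of 20 and 16.8% in APP/PS1 cortex, 4 of 8 and 22.96% in APP/PS1-ApoeKO cortex, 1 of 7 and 12.5% in APP/PS1 hippocampus, and 5 of 12 and 14.4% in APP/PS1-ApoeKO hippocampus. The share was higher in producers in 5 of the 6 groups for Jun and in 6 for Klf6 and Myc. At least 1 of 10 classical immediate early genes, a set chosen after the values were seen (Fos, Fosb, Jun, Junb, Egr1, Egr2, Atf3, Ier2, Dusp1, Nr4a1), was read in 70.97% of producers, 51.6% of cells with 1 rule gene and 45.1% of zero cells, and after thinning in 67.7%, 49.3% and 41.8%. At least 3 of the 10 were read in 7 producers (11.3%) and 20 zero cells (1.45%). These 7 producers included the 3 highest cells described above. Conversely, 18 of 62 producers (29.03%) had none of the 10.

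The summed level of the immediate early genes separated the cells less. The median in producers exceeded that in zero cells in 4 of 6 groups, and 36 of 62 producers (58.1%) lay above their group's zero-cell median and 17 (27.4%) above its upper quartile. In APP/PS1-ApoeKO cortex the medians were 3290 and 2216 RPM, with 7 of 8 producers above; in APP/PS1 hippocampus they were 1265 and 1965 RPM, with 1 of 7 above. Rgs2 and Sgk1 make up 36.5% and 17.8% of the list's reads, and Rgs2 was read in 87.1% of producers and 91.8% of zero cells. Over the 62 producers the Spearman correlation between the summed rule genes and the summed immediate early genes was 0.191, and 0.0611 over 59 without the 3 highest cells. How far dissociation sets the producer reads was not tested.

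**Figure D3:**
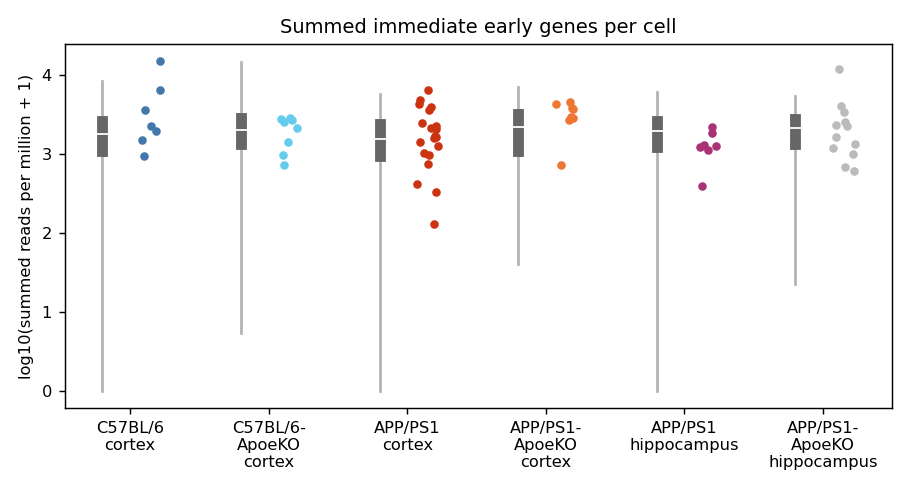
Summed immediate early genes per cell, as log10 of RPM plus 1 (vertical axis) by group (horizontal axis). Coloured points are producer cells; the grey bar beside them spans the quartiles of the group's zero cells, with the median as a white mark and the whole range as a thin line. Most producers lie within the range of the zero cells, and 17 of 62 lie above the upper quartile.

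The comparison of producers with zero cells across all genes used counts summed per group and arm, with the group as a block, in edgeR's quasi-likelihood test. Apart from the rule genes, 0 of 11956 genes passed an adjusted p of 0.05 in either direction (0% higher and 0% lower); 2448 had an unadjusted p under 0.05, 2418 of them lower in producers. The smallest adjusted p was 0.1, at which many genes were tied, Cd63, Hif1a, Aldoa, P2ry12, Csf1r, Siglech and Tmem119 among them. The producer sums hold 7 to 20 cells and the zero sums many more, and the median log2 fold change over all genes was -1.78. Over the genes read in at least 10% of cells it was -0.58, with 0 of 6413 past an adjusted p of 0.05. On simulated sums of this size the edgeR test recovered few of the genes that had been changed, so a count of 0 does not show that the cells are alike. DESeq2 on the same sums called 97 genes higher and 4269 lower. With Apoe or APP/PS1 as a modifier of the difference, edgeR called 0 of 11956 genes (0%) for each, with 2.05% and 3.98% of the genes at an unadjusted p under 0.05, and DESeq2 called 1.52% and 4.18% of the genes it tested as higher and 2.58% and 1.36% as lower.

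Mean log2(RPM + 1) per cell, compared between producers and zero cells of each group, was shifted slightly upward instead. Its median difference was 0.14 over 6413 genes read in at least 10% of cells, and 64.1% of these genes lay above 0. The limma test below did not remove this shift. This comparison was added after the data were seen. By it, 3.54% of 6413 genes lay higher in producers in 6 of 6 groups and 1.43% lower. In limma, 30 genes passed an adjusted p of 0.05 (0.468%), all higher in producers, where the prior spread followed the level in zero cells; the number was 45 where it followed the level in both arms, 12 with 1 spread for all genes and 0 where it followed the difference itself. These calls therefore depend on that choice, and the listed genes below are described by their values.

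Of 15 genes of activated, plaque-associated microglia read in at least 10% of cells, 13 had reads in a higher share of producers than of zero cells (86.7%, beside 67.88% of all genes). Clec7a, the beta-glucan receptor dectin-1, was read in 40.3% of producers and 6.18% of zero cells; Csf1, the ligand of Csf1r, in 25.8% and 3.49%; Cst7, a cystatin, in 29.03% and 9.59%; Ank in 35.5% and 10.1%; and Cd63, a tetraspanin of late endosomes, in 85.5% and 67.7%. Of the 15 genes of this list read in at least 10% of cells, 15 had a mean log2 difference above 0 (64.1% of all 6413 genes did), with a median of 1.08 (1.01 without the 3 highest cells). Cd9, Cd63, Cd68 and Ank lay higher in 6 of 6 groups; without the 3 highest cells 2 of them, Cd68 and Ank, did. Thinned to 100000 reads, Clec7a was read in 40.3% of producers and 5.63% of zero cells. The shares of cells with reads pool all groups, and APP/PS1 cortex makes up more of the producers than of the zero cells. A difference between groups can therefore enter these pooled shares. In the order used for the shares, Csf1 was read in 1 of 7, 0 of 8, 10 of 20, 1 of 8, 1 of 7 and 3 of 12 producers. The zero cells of the groups had 1.8% to 5.2%. Cst7 was read in 0 of 7, 1 of 8, 10 of 20, 2 of 8, 3 of 7 and 2 of 12 producers, against 1.06% to 18.1% of zero cells.

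Clec7a was uneven over the groups. It was read in 0 of 7 producers and 2.12% of zero cells of C57BL/6 cortex, 1 of 8 and 5.79% in C57BL/6-ApoeKO cortex, 13 of 20 and 12.1% in APP/PS1 cortex, 2 of 8 and 5.93% in APP/PS1-ApoeKO cortex, 5 of 7 and 6.25% in APP/PS1 hippocampus, and 4 of 12 and 5.76% in APP/PS1-ApoeKO hippocampus. The producers with reads lay mostly in the APP/PS1 groups. Seen the other way, producers made up 17.3% of the 75 cells with Clec7a reads in APP/PS1 cortex (9.57 to 27.8) and 2.97% of those without (1.20 to 6.02). In APP/PS1 hippocampus the same shares were 13.9% (4.67 to 29.5) and 0.844% (0.102 to 3.02), and in APP/PS1-ApoeKO hippocampus 16.7% (4.74 to 37.4) and 2.69% (1.17 to 5.24). In C57BL/6 cortex, 0 of the 8 cells with Clec7a reads were producers. Of the 75 cells with Clec7a reads in APP/PS1 cortex, 13 were producers and 28 were zero cells. The rest were among that group's 59 cells with 1 rule gene, so Clec7a reads were not particular to producers. The mean log2 level of Clec7a over the groups was 3.23 in producers and 0.51 in zero cells, a weighted difference of 3.17 with a standard error of 0.46 that was above 0 in 5 of 6 groups. In edgeR its log2 fold change was 2.14, with a standard error of 1.30 and an adjusted p of 0.378.

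**Figure D4:**
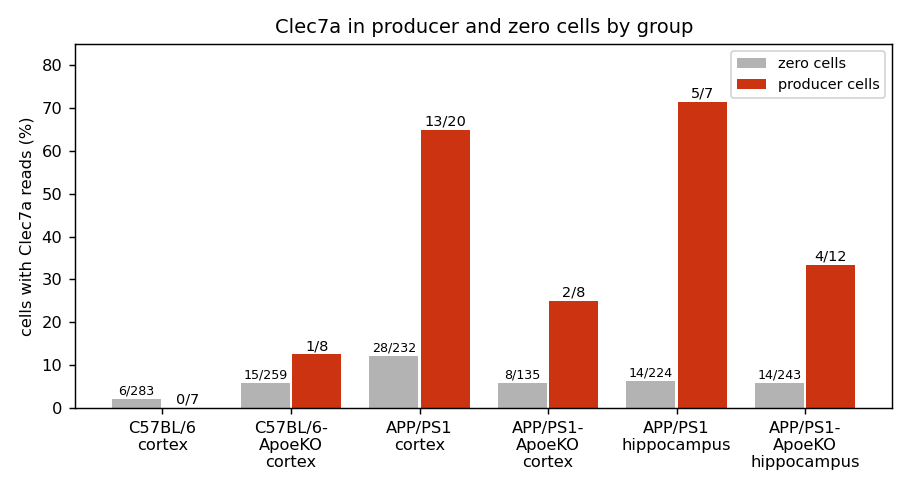
Share of cells with Clec7a reads (vertical axis, %) in zero cells (grey) and producer cells (red) by group (horizontal axis); labels give cells with reads over cells. Producers have the higher share in 5 of 6 groups, and 13 of 20 APP/PS1 cortex producers have reads.

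Among NF-kB genes, the subunit gene Nfkb2 was read in 24.2% of producers and 10.6% of zero cells, and the nuclear inhibitor Nfkbiz in 19.4% and 10.03%, both higher in 6 of 6 groups by mean log2 level per cell. Summed levels did not share this direction: Nfkb2 had 9.52 RPM in producers and 24.9 RPM in zero cells of APP/PS1 hippocampus, and Nfkbiz 2.33 and 14.2 RPM. Their edgeR log2 fold changes were 0.15 (standard error 1.00) and 0.24 (1.21) and changed sign in several alternatives, down to -0.46 for Nfkb2 and -0.53 for Nfkbiz. Nfkbia, which encodes the main feedback inhibitor IkBalpha, was read in 29.03% and 26.6%. Of the list's 18 genes read in at least 10% of cells, 16 (88.9%, beside 64.1% of all genes) had a mean difference above 0. The median over the 18 genes was 0.50 (0.33 without the 3 highest cells). Of 14 NF-kB target genes read in at least 10% of cells, 10 (71.4%) had reads in a higher share of producers, near the 67.88% of all genes. Their median difference in share was 8.23 points, beside 2.92 for all genes. By mean log2 level, 11 of the 14 (78.6%, beside 64.1% of all genes) had a difference above 0. The median over the 14 genes was 0.74 (0.68 without the 3 highest cells), beside 0.14 over all genes, and 0 of the 14 lay higher in 6 of 6 groups. As examples of targets, Plaur, the urokinase receptor, was read in 25.8% and 5.67%, Icam1 in 51.6% and 31.98%, and Cd83 in 54.8% and 30.5%. None of the listed genes passed in edgeR.

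Of the other chemokines, Ccl9 was read in 35.5% of producers and 20.1% of zero cells and lay higher in 6 of 6 groups, and Cxcl16 in 38.7% and 24.6%. Ccl5, a T cell attractant, was read in 0 producers and Cxcl10, an interferon target, in 0. Both were read in fewer than 10% of all cells, so these zeros do not set producers apart. Of the receptors, Tnfrsf1a, which binds TNF, was read in 61.3% and 49.5%. Of the cytokines, Il1a was read in 29.03% and 32.7%, and Il16 in 32.3% and 46.8%.

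The genes that process IL-1beta showed no common direction. Of the 11 read in at least 10% of cells, 6 (54.55%) had a mean difference above 0, beside 64.1% of all genes, with a median of 0.02. Casp1, the protease that cleaves pro-IL-1beta, was read in 22.6% of producers and 19.3% of zero cells. Nlrp3 was read in 20.97% and 24.7%, and Adam17, which sheds TNF, in 56.5% and 48.8%. Of 16 Toll-like receptor genes and adaptors, 13 (81.25%) had a mean difference above 0 (median 0.26). By share of cells with reads, 10 of the 16 (62.5%) were higher in producers, beside 67.88% of all genes. Tlr2 was read in 46.8% and 34.1% and Tlr4 in 17.7% and 26.5%. Of 10 genes for decay of cytokine messages, 5 (50%) had a mean difference above 0 (median 0.01). Zfp36, which encodes tristetraprolin, was read in 72.6% and 53.8%.

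Of 13 glycolysis genes read in at least 10% of cells, 12 had reads in a higher share of producers (92.3%, beside 67.88% of all genes). Aldoa, encoding aldolase, was read in 75.8% of producers and 49.7% of zero cells, and Hif1a, the hypoxia-inducible factor that drives this pathway, in 67.7% and 38.5%. By group, Hif1a was read in 4 of 7, 5 of 8, 16 of 20, 6 of 8, 3 of 7 and 8 of 12 producers, in the order used for the shares, against 34.3% to 43.97% of zero cells; every producer share but that of APP/PS1 hippocampus (42.9%, zero cells 37.95%) was above 50%. Of 13 genes of the list, 12 (92.3%, beside 64.1% of all genes) had a mean difference above 0. The median over the 13 genes was 1.13 (1.24 without the 3 highest cells), beside 0.14 over all genes. Hk2, hexokinase 2, lay lower in 6 of 6 groups and was read in 70.97% and 81.3%. In edgeR the log2 fold change was 0.92 for Aldoa (standard error 0.28) and 1.26 for Hif1a (0.37), both with an adjusted p of 0.1.

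Of 20 homeostatic genes, 8 (40%, beside 67.88% of all genes) were read in a higher share of producers. A mean difference above 0 was seen in 3 (15%, beside 64.1% of all genes), with a median of -0.56 (-0.33 without the 3 highest cells). Sall1, a transcription factor of microglial identity, was read in 74.2% of producers and 87.1% of zero cells and lay lower in 6 of 6 groups; without the 3 highest cells none of the 20 genes (0) did; P2ry12 had an edgeR log2 fold change of -0.43 (standard error 0.10, adjusted p 0.1). Heat shock genes, another sign of dissociation, had a mean difference above 0 in 10 of 12 genes (83.3%, beside 64.1% of all genes). Their median was 0.66 (0.56 without the 3 highest cells). Hspa5, the endoplasmic reticulum chaperone, was read in 82.3% and 65.7%. Hspa5 and Ubb lay higher in 6 of 6 groups, and without the 3 highest cells 1 of them, Hspa5, did. Of 11 immediate early genes read in at least 10% of cells, 7 had a mean difference above 0, which is 63.6%, beside 64.1% of all genes; the median was 0.57, and 0.34 without the 3 highest cells. Junb, Klf6 and Myc lay higher in 6 of 6 groups, and without the 3 highest cells 1 of them, Klf6, did.

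**Figure D5:**
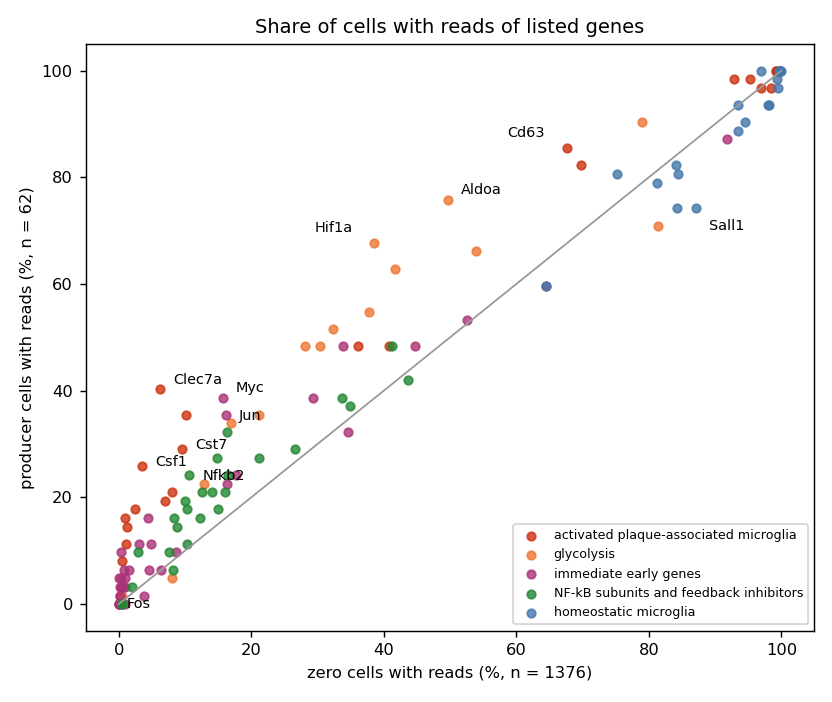
Share of producer cells (vertical axis, %) and of zero cells (horizontal axis, %) with reads of each gene of 5 lists (colours), pooled over all groups. The line marks equal shares. Genes of activated microglia and glycolysis lie mostly above the line, and 8 of 20 homeostatic genes do; Clec7a stands at 40.3% against 6.18%, Sall1 at 74.2% against 87.1%.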

How the data were processed

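Single microglia were sequenced with a modified SmartSeq2 protocol without molecular identifiers, per the labels' protocols. The deposited values used are raw read counts per gene and cell (29474 genes, 1878 cells). The submitters' processing notes name the build mm10 and, as tools, Seurat 2.3.1, featureCounts 1.5.1 and STAR 2.5.2. Strand-specific counting is not stated there. APP/PS1-ApoeKO cortex cells of 1 lane, which have no labelled read total, entered an alternative only.

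From the counts, RPM (reads of a gene per 1000000 reads of a cell), exact 95% binomial intervals, sums per group and arm, and mean log2(RPM + 1) per group and arm were computed. Differences were tested with edgeR 4.0.16 (quasi-likelihood, TMM, group as a block since both sums come from the same group, Benjamini-Hochberg), with DESeq2 1.42.0 as an alternative, and with limma 3.58.1 on mean log2 levels, weighted by producer cells, added after the data were seen. The limma test was first run with its prior spread following the difference between arms; that was corrected to follow the level in zero cells after the first counts were known, and all 4 forms are given. P-values measure the spread between groups of cells. Tests were checked on simulated data, where edgeR recovered few of the changed genes and limma most of the larger differences. R 4.3.3 and Python 3.11.15 were used.

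Cells, lists of genes and tests were chosen with earlier results of these data known. The 29 lists hold 432 genes, 379 with reads. The genes named are the rule genes and members of the lists. Examples were to be taken in order of fold change among members past an adjusted p of 0.05; as none passed in edgeR, the examples were chosen after their values were seen. Promoters and coordinates are from RefSeq (GRCm38.p6) and GENCODE (GRCm38), the assembly of mm10. Some genes of the lists are not reported here.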

Additional observations from a re-analysis of the deposited data

Results flagged for a closer look

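Among the APP/PS1-ApoeKO cortex cells of 1 lane without a labelled read total, which the report's comparisons do not use, 9 were producers (5.46%, exact 95% interval 2.52 to 10.1). This share is above that of C57BL/6 cortex (2.15%, 0.868 to 4.37), with overlapping intervals, and near that of the APP/PS1-ApoeKO cortex cells used (4.73%, 2.07 to 9.11). Their summed rule genes ranged from 114.8 to 1175 RPM, and their reads per cell from 117409 to 777556.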

How the results depend on the processing

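Over the alternatives, 29 values of the shares and counts moved, and the edgeR counts of 0 stayed at 0 in the settings not named here. Without the replicate block, which pairs the 2 sums of a group, edgeR called 5 genes higher and 512 lower; without a filter on low counts it called 1 higher (Mmp12, named after its value was seen) and 2 lower (Csf1r and Siglech). Producers with at least 3 of the 6 genes gave 5792 genes lower from 1 to 2 cells in each of 4 groups. DESeq2 called 97 higher and 4269 lower, 78 and 4436 without the 3 highest cells, and it called 1.52% of genes higher and 2.58% lower for the Apoe interaction and 4.18% and 1.36% for that with APP/PS1. The limma test on mean levels called 30 higher, 39 higher and 6 lower, 11 higher and 1 lower, and 0 as its prior spread was changed, and 16 higher without the 3 highest cells. Leaving out a group moved the edgeR counts between 0 and 1 lower (Tmem119, without C57BL/6-ApoeKO cortex), and for the APP/PS1 interaction between 0 and 0.0166% of genes higher: Man2b2 and Slc1a3 without C57BL/6-ApoeKO cortex, and Cst7 (0.00788%), without APP/PS1-ApoeKO cortex.

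With at least 3 of 6 genes the shares were 0.307% in C57BL/6 cortex, 0% in C57BL/6-ApoeKO cortex, 0.322% in APP/PS1 cortex, 0% in APP/PS1-ApoeKO cortex, 0.366% in APP/PS1 hippocampus and 0.623% in APP/PS1-ApoeKO hippocampus. With genes read in at least 5% of cells, 1.95% lay lower in 6 of 6 groups (1.43% at 10%). Among single genes, 13 values changed sign. With at least 10 reads the log2 fold change was -0.31 for Jun and -0.53 for Nfkbiz. Without the 3 highest cells Atf3 was at -1.08 (edgeR) and -0.86 (DESeq2). Nfkb2 was at -0.46 thinned, -0.05 against cells with 0 or 1 gene, -0.02 with the cells without labelled depth and -0.35 without cells with other markers; Nfkbiz was at -0.13 against 0 or 1 gene. Leaving out a group gave -0.36 (without APP/PS1-ApoeKO hippocampus) to 0.48 for Nfkb2 and -0.25 (without APP/PS1 cortex) to 0.78 for Nfkbiz. The cause was not tested. With 7 to 20 producers a group, depth and cell number limit what could be detected, and on simulated sums edgeR recovered few changed genes.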
